A study of Homo sapiens with 14 samples.

Results

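The vascular endothelial growth factor (VEGF) family was followed as 9 genes. They were the 3 receptor tyrosine kinases FLT1, KDR and FLT4, the 4 ligands VEGFA, VEGFB, VEGFC and PGF, and the 2 neuropilin co-receptors NRP1 and NRP2. They were picked by name, and all 9 were found among the 60624 Ensembl genes listed in each of 14 RNA-seq libraries. The set was picked with the difference in FLT1 between expandable pancreatic progenitors (ePPs) and the β-like cells made from them in view, so the members' values in that comparison are a description and carry no test.

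All libraries came from MEL1, an established human embryonic stem cell line, so every group stands for the same line. The study's methods name it MEL1 INS GFP/W, a line with a GFP reporter in the INS gene, so the INS values given here come from a line with an altered INS locus. Undifferentiated cells (hPSC), definitive endoderm (DE), pancreatic progenitors from stepwise differentiation (PP2) and β-like cells made from stem cells without expansion (SC-β) had 1 library each, all labelled batch 1. The ePPs at passage 9 (ePP-P9) and passage 21 (ePP-P21), and the β-like cells derived from ePPs (ePP-β), had 2 libraries each, labelled batch 2. Pancreatic progenitors given DMSO, the solvent, or 1 μM I-BET151 for 7 days had 2 libraries each, labelled batch 3. I-BET151 blocks the bromodomains of the BET proteins. By the study's methods the ePPs were grown on feeder cells in a medium that itself held I-BET151, EGF, bFGF and a TGFβ receptor inhibitor, while stages on the way to β-like cells were made in suspended aggregates. Nothing in the labels says that replicates were separate cultures, so a p-value measures only the spread between these libraries, which may be technical.

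VEGF ligands are secreted dimers that steer the growth of blood vessels. VEGFA signals mainly through KDR (VEGFR2). FLT1 (VEGFR1) binds VEGFA more tightly but signals weakly, and it is also made as a soluble form without a kinase, so it can act as a trap for the ligand. PGF and VEGFB bind FLT1 and not KDR, and VEGFC binds FLT4 (VEGFR3), the receptor of lymphatic vessels. Neuropilins bind both VEGFs and class 3 semaphorins. In the pancreas the epithelium and later the islet β cells secrete VEGFA, and the endothelium around them carries the receptors. The deposited values are totals per gene, so they cannot tell the soluble from the membrane form of FLT1.

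The values are TPM, a share of all transcripts that is corrected for transcript length and can be compared between genes. The sum of the listed TPM was between 908685 and 985497 in each library, and the number of reads behind it is unknown. All 37 mitochondrial genes were listed at 0 in every library, so a gene at 0 is described only as listed at 0. Ribosomal protein genes took 20.3% and 27.9% of the listed TPM in the DMSO libraries and 16.8% and 27.8% in the I-BET151 libraries, so replicates 1 and 2 of that experiment differed in composition. INS had 10916 and 17374 TPM in ePP-β and 20657 TPM in SC-β, but at most 0.0104 TPM in the 4 ePP libraries, where the progenitor factor PDX1 was between 124 and 134 TPM. GCG, the glucagon gene of α cells, had 14107 and 13360 TPM in ePP-β and 74281 TPM in SC-β, so both groups labelled β-like also held glucagon RNA. All 12 endothelial markers reached 1 TPM in the PP2 library, against at most 5 in any other library. Mesenchymal markers summed to 1598 TPM in PP2 and to 3264 TPM in SC-β. Of 12 trophoblast markers, 4 reached 1 TPM in PP2, 4 in DE and 6 in SC-β. The trophoblast markers summed to 1047 TPM in PP2, most of it from CGA at 901 TPM and HAND1 at 136 TPM, while TFAP2A was at 0.0215 TPM and GCM1 and XAGE2 were listed at 0.

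FLT1 (ENSG00000102755; GRCh38, chromosome 13, 28300346 to 28495145, minus strand) was highest in the ePPs and lowest in both kinds of β-like cell. The ePP-P9 libraries had 50.4 and 52.1 TPM, and the ePP-P21 libraries 59.7 and 59.2 TPM. In ePP-β the level was 0.0649 and 0.0822 TPM, and in SC-β 0.113 TPM. Each of the 4 ePP libraries was above every other library of the series, and the 3 β-like libraries were below every other. The mean fell from 55.4 ± 4.81 TPM (SD, n = 4) in ePPs to 0.0736 ± 0.0122 TPM (SD, n = 2) in ePP-β, a TPM ratio of 752, whose lower end rests on values whose read support is unknown. On the log2(TPM + 1) scale the difference was -5.71. The libraries of 31.6% of the 18076 genes tested also lay wholly lower in ePP-β than in ePP, and this comparison chose FLT1, so nothing is read from that separation. In bulk RNA, fewer FLT1-expressing cells and less FLT1 RNA per cell cannot be told apart.

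In the other groups FLT1 took middle values. It was at 15.3 TPM in hPSC, 2.23 TPM in DE and 8.26 TPM in PP2. In the pancreatic progenitors of batch 3 it was at 17.5 and 12.1 TPM with DMSO and at 22.1 and 42.5 TPM with I-BET151. Among the 19895 protein-coding genes, FLT1 stood at percentile 86.1 to 87.7 in the ePP libraries and at percentile 19.3 to 20.3 in the β-like ones. In the order ePP-P21, ePP-P9, I-BET151, hPSC, DMSO, PP2, DE, SC-β, ePP-β, the steps between the 2 ePP groups, between hPSC and DMSO, and between SC-β and ePP-β were under the pooled SD of replicates, 0.33 on the log2 scale. The other steps were larger than that SD. Steps between batches cannot be told apart from the batch.

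The 250 bases before the RefSeq start of FLT1 and of KDR (assembly GRCh38.p14) are shown because these 2 receptors had opposite levels in PP2 and in ePPs. Capitals mark the GC box GGGCGG on either strand, which binds Sp1, and the TATA box TATAAA. FLT1 lies at chr13:28495129-28495378 and KDR at chr4:55125596-55125845, both on the minus strand and both written 5′ to 3′ toward the gene.
FLT1: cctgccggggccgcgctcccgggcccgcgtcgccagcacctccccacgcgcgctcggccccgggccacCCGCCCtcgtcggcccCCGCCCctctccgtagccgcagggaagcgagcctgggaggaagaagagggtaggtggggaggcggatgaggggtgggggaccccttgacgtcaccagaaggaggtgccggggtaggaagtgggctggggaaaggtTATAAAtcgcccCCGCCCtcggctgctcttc
KDR: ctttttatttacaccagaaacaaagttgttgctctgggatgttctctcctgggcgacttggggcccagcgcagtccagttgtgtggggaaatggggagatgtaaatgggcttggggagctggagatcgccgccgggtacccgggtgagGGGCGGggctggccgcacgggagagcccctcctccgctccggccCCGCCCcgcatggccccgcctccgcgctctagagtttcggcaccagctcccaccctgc
FLT1 held 3 GC boxes and 1 TATA box, which begins 31 bases before the start, and KDR held 2 GC boxes and no TATAAA. Of 35116 promoter windows of this length, 42.6% held GGGCGG and 10.7% held TATAAA. The window of FLT1 was 73.2% and that of KDR 65.2% G or C, against a median of 58% over all windows. A match describes letters in a window and not a bound site.

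KDR (ENSG00000128052; chromosome 4, 55078481 to 55125595, minus strand), the main signalling receptor for VEGFA, was highest in PP2 and near 0 in the ePPs, where FLT1 was highest. It was at 35.4 TPM in PP2, 15.9 TPM in hPSC, 4.94 TPM in DE and 3.22 TPM in SC-β. The ePP-P9 libraries had 0.0189 and 0.0424 TPM, and of the ePP-P21 libraries 1 had 0.0356 TPM and 1 listed it at 0. In ePP-β it was at 0.564 and 0.354 TPM, with both libraries above all 4 ePP libraries although no library reached 1 TPM. DMSO gave 0.322 and 0.054 TPM, and I-BET151 gave 0.0791 TPM and a value listed at 0. PP2, where KDR was highest, was also the library in which all 12 endothelial markers reached 1 TPM. Their sum was 223 TPM in PP2 but 357 TPM in SC-β, of which EGFL7 gave 110 and 339 TPM. Leaving out EGFL7, which had at least 47.2 TPM in every library, the other 11 endothelial markers summed to 113 TPM in PP2 and to between 1.32 and 19.8 TPM elsewhere. CDH5, the cadherin of endothelial junctions, was at 22.3 TPM in PP2, at most at 0.733 TPM elsewhere, and listed at 0 in all 4 ePP libraries. The part of endothelial RNA in the KDR level of PP2 was not tested. In the ePPs, where FLT1 was highest, 1 or 2 of the 12 endothelial markers reached 1 TPM, EGFL7 in each library and ESAM, at 0.496 to 1.61 TPM, in 3. CDH5 and VWF were listed at 0 there and TEK was between 0.363 and 0.744 TPM. The part of endothelial RNA in the FLT1 level of the ePPs was not tested.

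FLT4 (ENSG00000037280; chromosome 5, 180601506 to 180649624, minus strand), the receptor for VEGFC, was low throughout. It was at 7.05 TPM in hPSC, 2.67 TPM in DE and 1.67 TPM in PP2, and under 1 TPM in the other 11 libraries. ePP-P9 had 0.232 and 0.19 TPM, ePP-P21 had 0.146 and 0.0932 TPM, and ePP-β had 0.145 and 0.492 TPM. SC-β was at 0.495 TPM, DMSO at 0.431 and 0.239 TPM, and I-BET151 at 0.676 and 0.0789 TPM. From SC-β down, every step in the order of FLT4 levels was under the pooled SD of 0.24 on the log2 scale.

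Summed over the 3 receptors, the ePP libraries had 50.6, 52.4, 59.9 and 59.3 TPM, of which FLT1 was between 99.5% and 99.8%. PP2 had a similar sum, 45.3 TPM, but there KDR was 78.1% and FLT1 18.2%. In hPSC the sum of 38.3 TPM was spread over all 3, with 40.1% FLT1, 41.5% KDR and 18.4% FLT4. The sum was 0.774 and 0.927 TPM in ePP-β and 3.83 TPM in SC-β, and 84.1% of the latter was KDR. FLT1 made up between 95.9% and 99.8% of receptor TPM in the DMSO and I-BET151 libraries, as it did in the ePPs, so the receptor makeup of PP2 was seen in no library of the other progenitor groups.

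**Figure D1:**
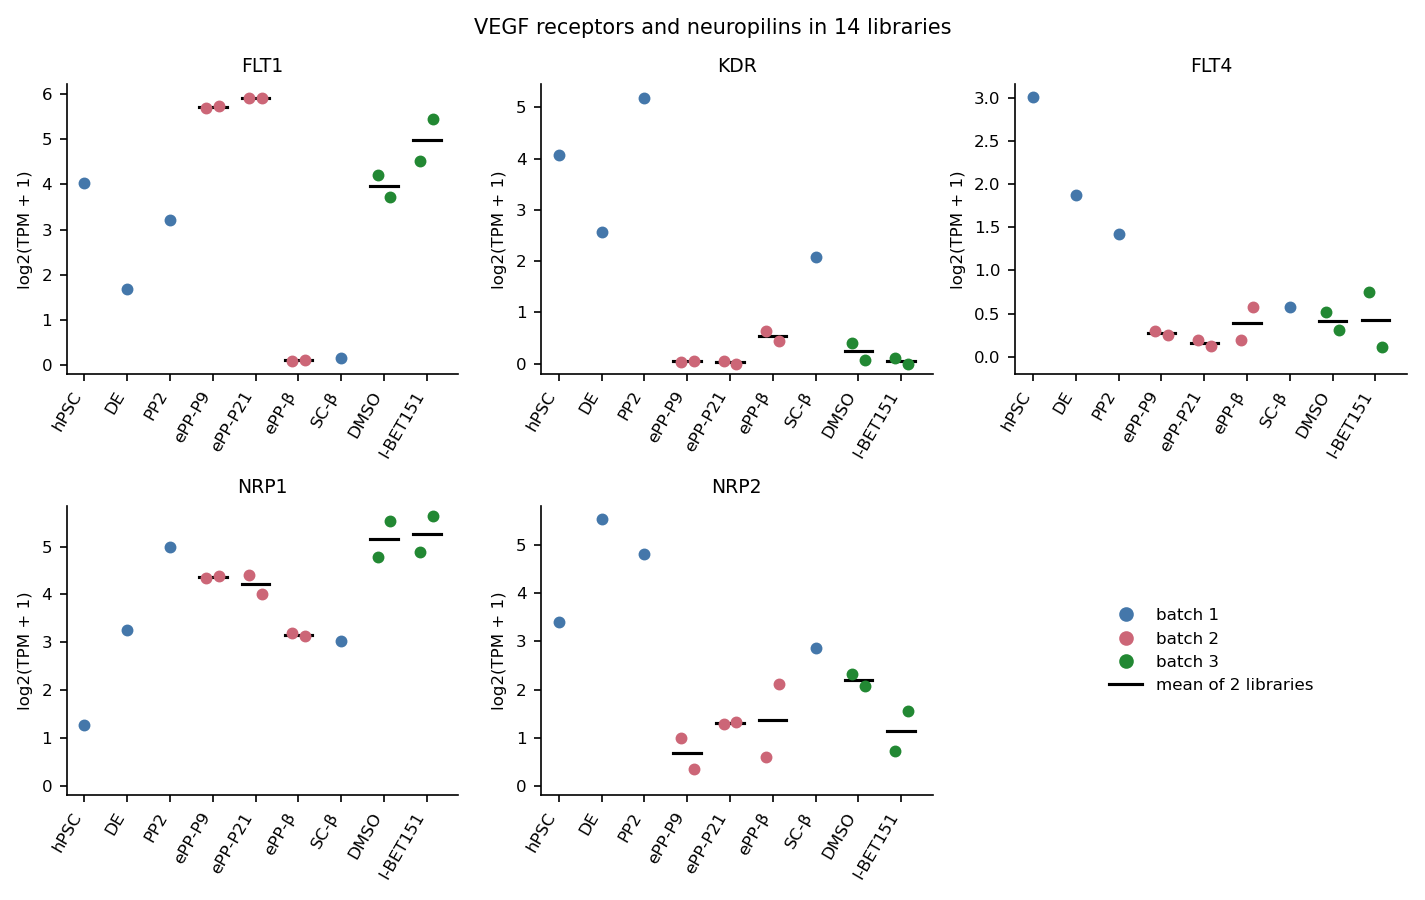
Level of each VEGF receptor and neuropilin as log2(TPM + 1) on a linear axis, 1 point per library coloured by batch, with black lines for the mean of the groups with 2 libraries; each panel has its own axis. FLT1 is highest in the 4 ePP libraries, between 50.4 and 59.7 TPM, and at most 0.113 TPM in the 3 β-like libraries, while KDR is highest in PP2 at 35.4 TPM.

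NRP1 (ENSG00000099250; chromosome 10, 33177492 to 33336262, minus strand), the neuropilin that joins VEGFA to KDR, was the main neuropilin of the progenitors. It was at 1.42 TPM in hPSC, 8.5 TPM in DE and 30.6 TPM in PP2. The libraries of ePP-P9 gave 19.3 and 19.9 TPM, those of ePP-P21 gave 20.2 and 15.2 TPM, and those of ePP-β gave 8.1 and 7.76 TPM. SC-β was at 7.14 TPM, DMSO at 26.7 and 45.5 TPM, and I-BET151 at 28.4 and 48.5 TPM. All 4 ePP libraries were above both ePP-β libraries, by a mean difference of 1.13 on the log2 scale, and the β-like cells of both batches stood close together. The steps I-BET151 to DMSO, DMSO to PP2, ePP-P9 to ePP-P21, DE to ePP-β and ePP-β to SC-β were under the pooled SD of 0.36.

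NRP2 (ENSG00000118257; chromosome 2, 205681990 to 205798133, plus strand), the neuropilin that also serves VEGFC, followed another order. It was at 9.56 TPM in hPSC, 45.9 TPM in DE, 27.3 TPM in PP2 and 6.25 TPM in SC-β. ePP-P9 had 0.999 and 0.276 TPM, ePP-P21 had 1.45 and 1.51 TPM, and ePP-β had 0.523 and 3.34 TPM. DMSO had 4.01 and 3.18 TPM, and I-BET151 had 0.654 and 1.92 TPM. The ePP-β libraries lay on both sides of the ePP libraries, and the sign of their mean difference, 0.37 on the log2 scale, turned to -0.39 without ePP-β replicate 2 and to -0.16 with quantile normalization. NRP1 was 12.9% and 15.6% of the neuropilin TPM in hPSC and DE, 52.8% in PP2 and between 91% and 98.6% in the ePPs.

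VEGFA (ENSG00000112715; chromosome 6, 43770184 to 43786487, plus strand) was the most abundant ligand in 13 of 14 libraries. It was at 42.4 TPM in hPSC, where VEGFB was higher, then at 56.8 TPM in DE, 136 TPM in PP2 and 548 TPM in SC-β. Among the libraries of batch 2, ePP-P9 gave 51.4 and 63.9 TPM, ePP-P21 gave 131 and 152 TPM, and ePP-β gave 202 and 380 TPM. DMSO had 273 and 269 TPM and I-BET151 had 145 and 245 TPM. Both ePP-β libraries were above all 4 ePP libraries, with means of 291 ± 126 TPM (SD, n = 2) and 99.7 ± 49.6 TPM (SD, n = 4), a TPM ratio of 2.92. The log2 difference was 1.61, and it ranged from 1.16 without ePP-β replicate 2 to 2.06 without ePP-β replicate 1. The highest level of the series, in SC-β, was at percentile 99 of the protein-coding genes.

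PGF (ENSG00000119630; chromosome 14, 74941834 to 74955626, minus strand) and VEGFB (ENSG00000173511; chromosome 11, 64234584 to 64239264, plus strand) are the ligands that bind FLT1 and not KDR. PGF was at 7.96 TPM in hPSC, 3.96 TPM in DE, 45.5 TPM in PP2 and 93.7 TPM in SC-β. It stayed between 5.91 and 6.25 TPM in the 4 ePP libraries and reached 23.7 and 22 TPM with ePP-β, a TPM ratio of 3.72 between the means and a log2 difference of 1.74. DMSO had 46.1 and 23.7 TPM of PGF and I-BET151 had 31.1 and 11.9 TPM. The 4 ePP libraries thus held the most FLT1 and, but for DE, the least PGF.

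VEGFB was more even. It was at 50 TPM in hPSC, 49.4 TPM in DE, 57.4 TPM in PP2 and 136 TPM in SC-β. ePP-P9 had 21.7 and 21.5 TPM, ePP-P21 had 26.2 and 26 TPM, and ePP-β had 51.3 and 50.2 TPM, a ratio of 2.13 between the ePP-β and ePP means and a log2 difference of 1.06. DMSO had 44.5 and 21.4 TPM and I-BET151 had 29 and 13.4 TPM. Replicates of ePP-P9, ePP-P21 and ePP-β lay close together, whereas in batch 3 replicate 1 was above replicate 2 under both treatments. PP2, ePP-β, hPSC and DE stood within steps smaller than the pooled SD of 0.47 on the log2 scale.

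VEGFC (ENSG00000150630; chromosome 4, 176683538 to 176792922, minus strand), the ligand of FLT4, was present in SC-β at 12.3 TPM and in PP2 at 3.83 TPM. In ePP-β it was at 0.971 and 0.0957 TPM. In the other 10 libraries it was at most at 0.0427 TPM, and 1 ePP-P21 and both I-BET151 libraries listed it at 0. The mesenchymal and fibroblast markers, whose part in these levels was not tested, summed to 3264 TPM in SC-β with 11 of 12 at 1 TPM, to 1598 TPM in PP2 with 11 of 12, and to between 89.2 and 114 TPM in ePP-β with 9 or 10 of 12. In the ePPs they summed to between 170 and 205 TPM.

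The 250 bases before the starts of PGF (chr14:74955598-74955847, minus strand) and VEGFB (chr11:64234334-64234583, plus strand) are shown because both ligands of FLT1 were higher in ePP-β, where FLT1 was low. GC boxes are again in capitals.
PGF: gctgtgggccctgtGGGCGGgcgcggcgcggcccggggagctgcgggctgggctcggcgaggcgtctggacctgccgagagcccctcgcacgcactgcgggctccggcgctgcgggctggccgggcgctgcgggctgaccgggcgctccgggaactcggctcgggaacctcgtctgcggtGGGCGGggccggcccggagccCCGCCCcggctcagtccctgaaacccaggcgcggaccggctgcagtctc
VEGFB: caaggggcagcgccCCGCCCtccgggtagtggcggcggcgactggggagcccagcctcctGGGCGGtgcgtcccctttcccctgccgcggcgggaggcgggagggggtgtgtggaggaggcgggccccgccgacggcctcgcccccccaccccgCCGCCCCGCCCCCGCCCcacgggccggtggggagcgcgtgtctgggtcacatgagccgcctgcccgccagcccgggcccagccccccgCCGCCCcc
PGF held 3 GC boxes and VEGFB 6, some of them overlapping, and neither held TATAAA. The windows were 80% and 82.8% G or C. ACGTG, a form of the hypoxia response element core, was in none of the 6 member windows searched (FLT1, KDR, VEGFB, VEGFC, PGF and NRP2). It was in 18.5% of all windows on either strand. CCGGAA, a form of the ETS site that 14.5% of all windows held, was in none of the 6 either. The same held for the E-box form CACGTG, which contains ACGTG and was in 6.34% of all windows. Other forms of these motifs were not searched, and the member windows may hold them. VEGFC and NRP2 had 2 and 3 GC boxes. The sequences of VEGFA, FLT4 and NRP1 were not used here.

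**Figure D2:**
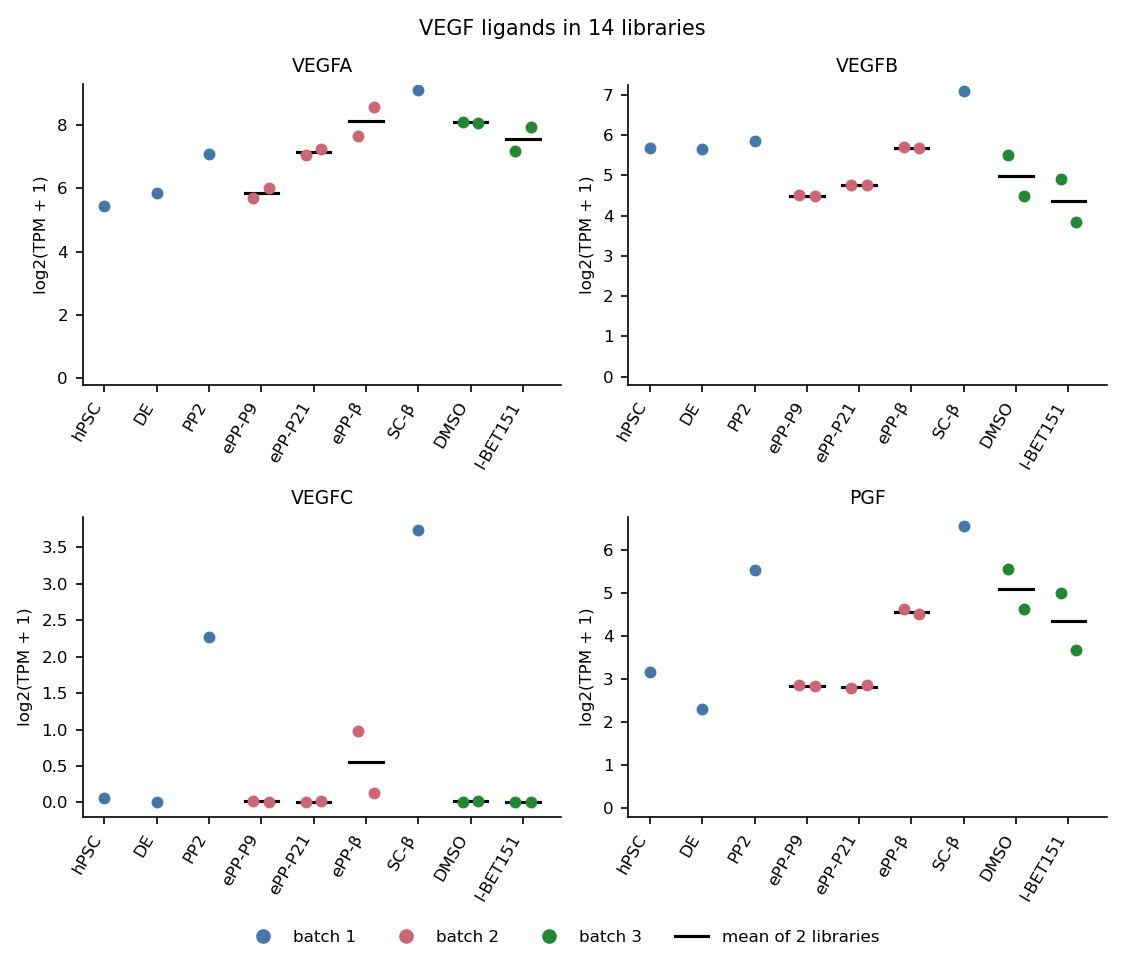
Level of each VEGF ligand as log2(TPM + 1) on a linear axis, 1 point per library coloured by batch, with black lines for the mean of the groups with 2 libraries; each panel has its own axis. SC-β is the highest group for all 4 ligands, and both ePP-β libraries lie above the 4 ePP libraries in every panel.

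Ligand and receptor RNA moved apart between ePPs and β-like cells. Summed over the 4 ligands, ePP-P9 had 79.3 and 91.6 TPM, ePP-P21 had 163 and 185 TPM, ePP-β had 278 and 452 TPM, and SC-β had 790 TPM. Ligand TPM per receptor TPM was therefore between 1.57 and 3.11 in the ePPs, 360 and 488 in ePP-β, and 206 in SC-β. It was 2.62 in hPSC, 11.2 in DE and 5.36 in PP2. In batch 3 it was 20 and 25.3 with DMSO and 9.01 and 6.34 with I-BET151. Before the β-like stage the ePPs had the lowest ratios but for hPSC, which lay between those of the ePP libraries. These ratios restate the member levels and are given with no test.

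**Figure D3:**
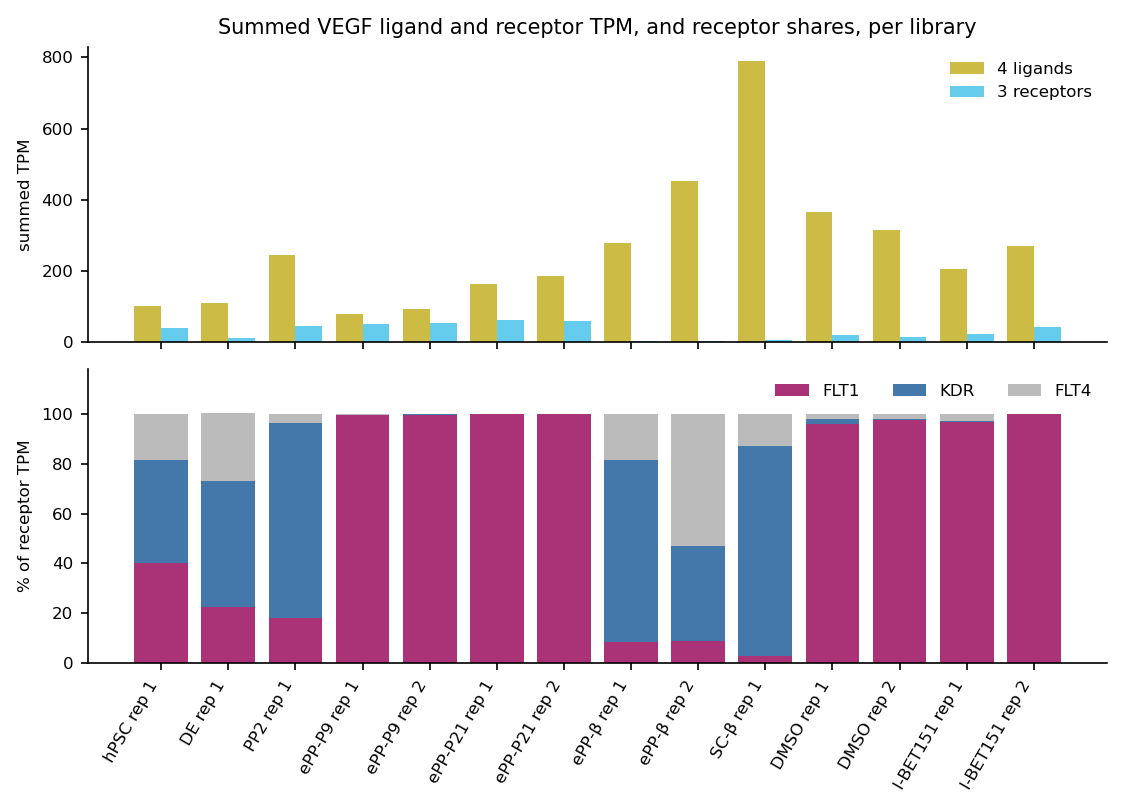
Upper panel, TPM summed over the 4 ligands and the 3 receptors in each of the 14 libraries, on a linear axis from 0; lower panel, share of receptor TPM from FLT1, KDR and FLT4. FLT1 is at least 99.5% of receptor TPM in the 4 ePP libraries, whereas KDR is 78.1% in PP2, and the receptor bars of ePP-β, 0.774 and 0.927 TPM, are too low to see.

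Over the single libraries of batch 1, receptors and ligands took different courses from stem cell to β-like cell. FLT1 was 6.88-fold lower in DE than in hPSC, 3.7-fold higher in PP2 than in DE, and 73.1-fold lower in SC-β than in PP2. KDR had the same signs, with 3.22-fold, 7.17-fold and 11-fold. VEGFA had a higher level at each step, by 1.34-fold, 2.4-fold and 4.02-fold. PGF was 2.01-fold lower in DE than in hPSC, 11.5-fold higher in PP2 than in DE and 2.06-fold higher in SC-β than in PP2. With 1 library a stage, none of these steps has a replicate check.

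The comparison of ePP-β with ePP shows what else of the VEGF pathway differed where FLT1 did. Pathway genes were tested with limma over all 18076 genes, of which 27.8% were called at a Benjamini-Hochberg adjusted p under 0.05 and a log2 fold change beyond 1, 17.9% higher and 9.86% lower, and the median of all genes was -0.03. An unadjusted p under 0.05 was found for 62.2%. VEGFA, VEGFB, PGF, KDR and VEGFC had both ePP-β libraries above all ePP libraries, which held for 32.2% of all genes tested. FLT1 and NRP1 lay wholly below, and FLT4 and NRP2 overlapped. FLT1, VEGFA, VEGFB, PGF, NRP1 and NRP2 passed the filter of 1 TPM in 2 libraries, FLT1 only through the ePP libraries, and KDR, FLT4 and VEGFC did not pass.

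Of 12 genes known to be induced in low oxygen, as VEGFA is, 9 rose in ePP-β and none fell, with a median log2 fold change of 2.06. CA9, 1 of the 9, passed the filter only through the ePP-β libraries. SLC2A1, the glucose transporter GLUT1, was between 46.2 and 47.9 TPM in the ePPs and at 225 and 282 TPM in ePP-β (log2 fold change 2.40 ± 0.10 SE, adjusted p = 1.92e-05). BNIP3, a mitophagy receptor, rose by 2.81 ± 0.19 (SE, adjusted p = 8.4e-05), PFKFB4, a regulator of glycolysis, by 3.30 ± 0.19 (SE, adjusted p = 5.57e-05), and ADM, the peptide adrenomedullin, by 2.26 ± 0.17 (SE, adjusted p = 0.00014). PDK1 was not called, at -0.80 ± 0.39 (SE, adjusted p = 0.128). Across alternative settings between 8 and 10 of the list were called higher and none or 1 lower, which was PDK1 without ePP-β replicate 2 (log2 fold change -1.56). The 12 genes summed to between 515 and 634 TPM in the ePPs and to 1607 and 2187 TPM in ePP-β, but to 561 TPM in SC-β, where VEGFA was highest. The sum is carried by the abundant genes of the list, and single genes of SC-β went both ways: SLC2A1 (175 TPM), ADM (47.5), BNIP3 (96.7), PFKFB4 (22.4) and ANKRD37 (6.23) were above all 4 ePP libraries, and PDK1 (2.19), LDHA (26.7), PGK1 (70.6), KDM3A (8.34) and P4HA1 (31.8) were below all 4.

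**Figure D4:**
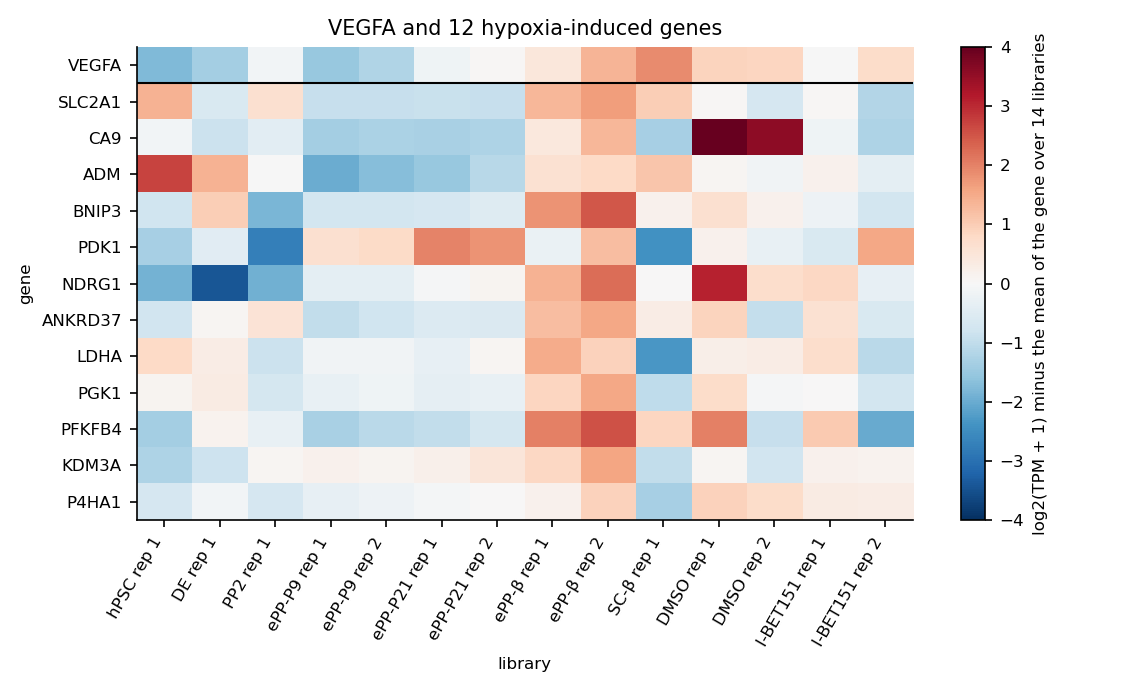
VEGFA (top row) and 12 hypoxia-induced genes (rows) in the 14 libraries (columns); colour is log2(TPM + 1) minus the mean of the gene over all libraries. SLC2A1, BNIP3 and PFKFB4 are high in both ePP-β libraries and low in the ePPs, and SC-β, with VEGFA at 548 TPM, is above the ePPs for SLC2A1 and ADM and below them for PDK1 and LDHA.

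Of 9 regulators of the hypoxia pathway, 2 rose and none fell. EGLN3, an oxygen-sensing prolyl hydroxylase, was between 1.62 and 2.2 TPM in the ePPs and at 38.3 and 50 TPM in ePP-β (log2 fold change 3.92 ± 0.17 SE, adjusted p = 2.18e-05). Its relative EGLN1 rose by 1.16 ± 0.13 (SE, adjusted p = 0.000552), a call lost without ePP-β replicate 2, where it was 0.99. The median log2 fold change of the regulators was 0.35.

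Of the 10 tested semaphorins and plexins that share neuropilins with VEGF, 4 rose and 1 fell. SEMA3A and SEMA3E, 2 of the 4, passed the filter only through the ePP-β libraries. SEMA3A, a secreted guidance cue that binds NRP1, was at most at 0.996 TPM in the ePPs and at 29.8 and 26.6 TPM in ePP-β (log2 fold change 4.28 ± 0.18 SE, adjusted p = 1.88e-05). SEMA3E and SEMA3B rose by 1.86 ± 0.13 and 1.69 ± 0.21 (SE, adjusted p = 0.000104 and 0.000874). PLXNA1, a signalling partner of NRP1, fell by 1.93 on the log2 scale (SE 0.09, adjusted p = 2.22e-05). The median of the list was 0.51.

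Among 12 tested components of VEGF receptor signalling, 1 rose and 3 fell, with a median of -0.46. SPRY4, a feedback inhibitor of receptor tyrosine kinases, was between 17.2 and 23.9 TPM in the ePPs and at 2.61 and 2.49 TPM in ePP-β (log2 fold change -2.68 ± 0.16 SE, adjusted p = 5.79e-05). DUSP5, a phosphatase of ERK, had -1.40 ± 0.09 (SE, adjusted p = 6.31e-05). PLCG1, the phospholipase that binds activated KDR, had -1.22 ± 0.18 (SE, adjusted p = 0.00203), which was -0.89 and not called without ePP-β replicate 1. SHC2, an adaptor, rose by 1.93 ± 0.15 (SE, adjusted p = 0.000144). These genes also serve other receptors, among them those for EGF and FGF, whose ligands were in the ePP medium. The part of the medium in these differences was not tested.

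Other angiogenic ligands and receptors went both ways, 5 higher and 4 lower of 11 tested, with a median of 0.77. ANGPT1, ANGPTL4 and APLN, 3 of the 5 higher, passed the filter only through the ePP-β libraries. DLL4, a Notch ligand of sprouting vessels, rose by 3.63 ± 0.27 (SE, adjusted p = 0.000135), ANGPTL4, a lipase inhibitor, by 2.87 ± 0.25 (SE, adjusted p = 0.000236), and ANGPT2, a ligand of TEK, by 2.44 ± 0.23 (SE, adjusted p = 0.000344). EPHB4, the receptor that marks veins, was between 70.8 and 76.1 TPM in the ePPs and at 12.6 and 12.4 TPM in ePP-β (log2 fold change -2.47 ± 0.07 SE, adjusted p = 6.72e-06). Of 11 tested matrix proteins and inhibitors, 2 rose and 3 fell, with a median of -0.41. SERPINF1 (PEDF), an inhibitor of vessel growth, rose by 2.67 ± 0.12 (SE, adjusted p = 2.4e-05) and THBS1, another, by 1.72 ± 0.16 (SE, adjusted p = 0.000336). HSPG2 (perlecan), a matrix proteoglycan that binds VEGFA, had -2.06 ± 0.11 (SE, adjusted p = 4.09e-05), and ADAMTS1, a protease, had -1.81 ± 0.13 (SE, adjusted p = 0.000128).

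The kinase relatives and the genomic neighbours of FLT1 were followed in the same comparison. FLT1 was chosen with its difference here in view, so their sizes are not set against it. Of the related receptor kinases, 2 of 5 were tested, PDGFRB fell by 1.15 on the log2 scale (SE 0.22, adjusted p = 0.0055; not called without ePP-P21 replicate 1), and their median was -0.53. Of 9 genes beside FLT1 on chromosome 13, 6 were tested, 2 fell and the median was -0.35. CDX2, an intestinal transcription factor 331 kb away, was between 94.2 and 95.4 TPM in the ePPs and at 17.4 and 15.3 TPM in ePP-β (log2 fold change -2.46 ± 0.08 SE, adjusted p = 8.87e-06). PDX1, 374 kb away, had -1.25 ± 0.07 (SE, adjusted p = 3.82e-05). The nearest, PAN3, 5 kb away, had -0.49 ± 0.19 (SE, adjusted p = 0.0705) and was not called.

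Cell type markers moved in the same comparison. All 5 endocrine markers rose, 4 of which (INS, GCG, NKX2-2 and NEUROD1) passed the filter only through the ePP-β libraries, as did CLDN5, TWIST1 and TFAP2C among the other markers that rose. Of the pancreatic progenitor markers, 2 of 4 fell (PDX1 and SOX9). Of the endothelial markers, 3 of 12 were tested and 2 rose, CLDN5 by 3.12 ± 0.45 (SE, adjusted p = 0.00178) and EGFL7 by 1.69 ± 0.10 (SE, adjusted p = 5.36e-05), while CDH5 was at 0.0576 and 0.0787 TPM in ePP-β. Of 9 tested mesenchymal markers 1 rose and 3 fell. Of the trophoblast markers only TFAP2C was tested, and it rose by 1.21 ± 0.14 (SE, adjusted p = 0.000687); it was not called with quantile normalization. Of the pluripotency and endoderm markers 2 were tested and both rose, CXCR4 by 4.25 ± 0.21 (SE, adjusted p = 3.21e-05) and SOX2 by 1.75 ± 0.19 (SE, adjusted p = 0.000604). The part of these cell types in the pathway differences was not tested.

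Between passages 9 and 21 FLT1 stayed at a similar level in the ePPs, and VEGFA was higher, with a call that depended on the settings. VEGFA was at 51.4 and 63.9 TPM at passage 9 and at 131 and 152 TPM at passage 21, a log2 fold change of 1.29 ± 0.14 (SE, 95% interval 0.94 to 1.63, adjusted p = 0.035 over 15822 genes by limma), or 1.16 above the median of all genes, which was 0.13. It was the 1 of 6 tested members called, against 1.13% of all tested genes called, 1.07% higher and 0.0569% lower. The call was not kept with no filter (adjusted p = 0.203) or with median centring (log2 fold change 1.08, adjusted p = 0.0648). Nor was it kept with quantile normalization (adjusted p = 0.0544) or with all 6 libraries of batch 2 (adjusted p = 0.0944). It was also lost without ePP-P21 replicate 1 (log2 fold change 1.40) and without ePP-P21 replicate 2 (1.18). In each of 11 alternatives VEGFA was higher at passage 21.

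FLT1 differed by 0.21 ± 0.09 on the log2 scale (SE, adjusted p = 0.224), with both ePP-P21 libraries above both ePP-P9 libraries. VEGFB differed by 0.26 ± 0.11 (SE, adjusted p = 0.229) and NRP2 by 0.63 ± 0.31 (SE, adjusted p = 0.289), also with no overlap. NRP2 passed the filter only through the ePP-P21 libraries. Such a separation upward held for 41.3% of all tested genes. PGF and NRP1 overlapped between passages, at -0.03 ± 0.17 (SE, 95% interval -0.45 to 0.40, adjusted p = 0.946) and -0.16 ± 0.17 (SE, 95% interval -0.57 to 0.26, adjusted p = 0.625). KDR, FLT4 and VEGFC did not pass the filter, and FLT4 was lower in both ePP-P21 libraries, as 13.1% of tested genes were.

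Few pathway genes passed the test between passages. Of 11 tested hypoxia-induced genes only PDK1, which restrains pyruvate oxidation, rose, from 25.6 and 28 TPM to 67.5 and 58.4 TPM (log2 fold change 1.20 ± 0.12 SE, adjusted p = 0.0319), and the median was 0.24. SEMA3B rose by 1.31 ± 0.19 (SE, adjusted p = 0.0446), the 1 called of 8 tested semaphorins and plexins. SHC2 rose by 1.13 ± 0.16 (SE, adjusted p = 0.0434), the 1 called of 12 signalling components. These 3 calls were not kept with median centring, nor without either ePP-P21 library. None of the tested hypoxia regulators (8), other angiogenic genes (8), matrix proteins and inhibitors (11), related kinases (2) or FLT1 neighbours (5) was called by limma, and 0, 0, 6, 0 and 2 of them had an unadjusted p under 0.05, as 23% of all tested genes did. Their largest differences were ARNT at 0.32 ± 0.17, ANGPT2 at -0.58 ± 0.30, SERPINF1 at -0.69 ± 0.17, PDGFRB at 0.32 ± 0.27 and SLC46A3 at 0.82 ± 0.21 (SE). ANGPT2 passed the filter only through the ePP-P9 libraries. Of the cell type markers, 2 of 12 endothelial, 7 of 12 mesenchymal, 0 of 12 trophoblast, 4 of 4 pancreatic progenitor, 1 of 5 endocrine and 2 of 5 pluripotency and endoderm markers were tested. None of those tested was called by limma, and 1, a mesenchymal marker, had an unadjusted p under 0.05. The comparison shares its ePP libraries with that of ePP-β and ePP.

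I-BET151 against DMSO asks what BET inhibition does to the family in pancreatic progenitors over 7 days. None of the 6 tested members was called by limma over 16687 genes, of which 0.21% were called, 0.204% lower and 0.00599% higher. NRP2, which passed the filter only through the DMSO libraries, alone had an unadjusted p under 0.05, as 15.2% of all tested genes did. FLT1 was at 17.5 and 12.1 TPM with DMSO and at 22.1 and 42.5 TPM with I-BET151, so both treated libraries were above both controls, as for 28.7% of all tested genes. Its log2 fold change was 1.02 ± 0.44 (SE, 95% interval -0.10 to 2.14, adjusted p = 0.364), or 0.87 above the median of all genes of 0.16. Between libraries with the same replicate number the TPM ratio of I-BET151 to DMSO was 1.26 for replicate 1 and 3.5 for replicate 2.

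VEGFA was lower in both I-BET151 libraries, with a log2 fold change of -0.52 ± 0.38 (SE, 95% interval -1.48 to 0.44, adjusted p = 0.571). NRP2, which passed the filter only through the DMSO libraries, was also lower in both, at -1.06 ± 0.39 (SE, 95% interval -2.06 to -0.06, adjusted p = 0.302). That separation downward held for 18% of all tested genes. VEGFC, which did not pass the filter, was listed at 0 in both I-BET151 libraries and at most at 0.0131 TPM with DMSO. VEGFB at -0.62 ± 0.55 (SE, adjusted p = 0.65), PGF at -0.74 ± 0.58 (SE, adjusted p = 0.608) and NRP1 at 0.09 ± 0.44 (SE, adjusted p = 0.949) overlapped, and the sign of NRP1 turned with quantile normalization and without either DMSO replicate 1 or I-BET151 replicate 2. KDR and FLT4 overlapped and did not pass the filter. The intervals of FLT1, VEGFA, VEGFB, PGF and NRP1 all include 0 and reach beyond 1 in size, so 2-fold differences lie within them. With 1 library left out, the log2 fold change ranged from 0.57 to 1.48 for FLT1, from -0.89 to -0.15 for VEGFA, from -1.15 to -0.09 for VEGFB, from -1.40 to -0.09 for PGF and from -1.47 to -0.65 for NRP2, the ends nearest 0 being without I-BET151 replicate 2 for FLT1, VEGFB and PGF and without I-BET151 replicate 1 for VEGFA and NRP2.

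**Figure D5:**
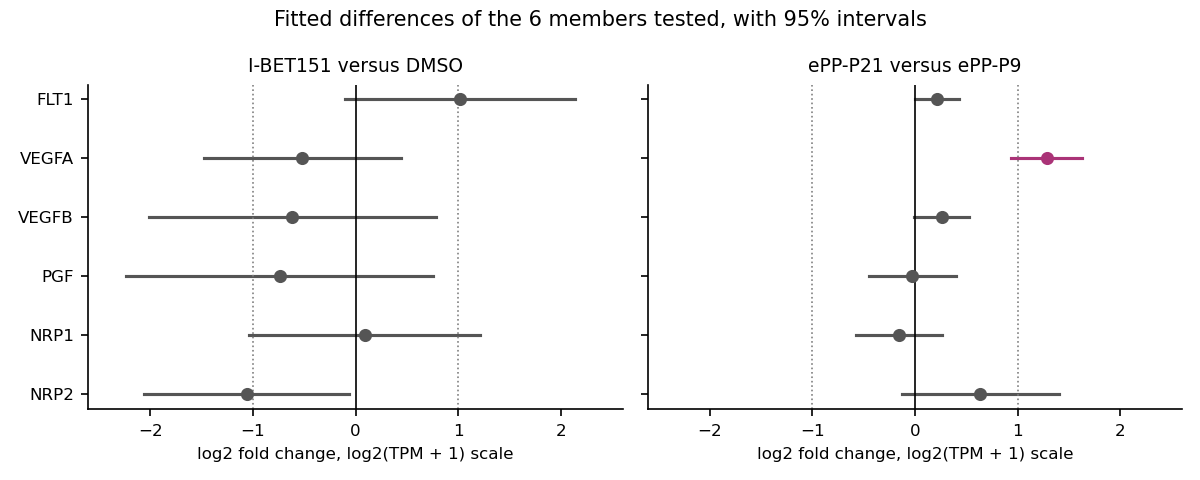
Fitted log2 fold changes with 95% intervals from limma for the 6 members that passed the filter, on the log2(TPM + 1) scale; left, I-BET151 against DMSO, right, ePP-P21 against ePP-P9, 2 libraries a group; dotted lines mark a log2 fold change of 1 in size. VEGFA between passages, 1.29 with an interval of 0.94 to 1.63, is the only member called (coloured), and the intervals on the left are wider than those on the right.

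At the settings used, no gene of the 8 pathway lists was called between I-BET151 and DMSO by limma. Of the tested hypoxia regulators (9), hypoxia-induced genes (12), semaphorins and plexins (8), signalling components (12), other angiogenic genes (10), matrix proteins and inhibitors (11), related kinases (3) and FLT1 neighbours (6), 1, 1, 2, 1, 2, 3, 1 and 1 had an unadjusted p under 0.05. CA9, a carbonic anhydrase that hypoxia induces, had the largest difference, from 40 and 29.5 TPM with DMSO to 1.31 and 0.0877 TPM with I-BET151 (log2 fold change -4.48 ± 0.47 SE, adjusted p = 0.055), and passed the filter only through the DMSO libraries. SEMA3B was at 99.8 and 59.8 TPM with DMSO and at 5.18 and 2.93 TPM with I-BET151 (log2 fold change -3.99 ± 0.42 SE, adjusted p = 0.0564). Both were called lower with median centring (adjusted p = 0.0339 for each), with quantile normalization (0.034 for each) and with the replicate block (0.00362 and 0.0035). Neither was called with a pseudocount of 0.1, with no filter or with the filter of 5 TPM. With 1 library left out the log2 fold change was between -5.02 and -3.94 for CA9 and between -4.35 and -3.63 for SEMA3B. The replicate block called 2294 of all 16687 tested genes, 1466 lower and 828 higher. In the pathway lists 3 hypoxia-induced genes, 2 semaphorins and plexins, 2 matrix proteins or inhibitors and 2 FLT1 neighbours were then called lower. So were 1 hypoxia regulator and 1 other angiogenic gene, while 1 signalling component, 1 matrix protein or inhibitor and 1 related kinase were called higher. Without I-BET151 replicate 2 the log2 fold change was -2.41 for SEMA3D, -1.91 for SERPINF1 and -2.68 for SLC46A3. It was 2.17 for SEMA3F and 2.45 for VASH1. As reported, the largest differences in the other lists were EGLN3 at -1.05 ± 0.68, PLCG1 at 1.11 ± 0.37, PDGFB at -1.24 ± 0.35, VASH1 at 1.85 ± 0.58, KIT at 1.23 ± 0.42 and SLC46A3 at -2.00 ± 0.58 (SE), with adjusted p between 0.202 and 0.525. PDGFB passed the filter only through the DMSO libraries, and KIT only through the I-BET151 libraries. Among the marker lists 1 gene was called: LUM, a mesenchymal proteoglycan, was at 16.2 and 14.2 TPM with DMSO and at 0.477 and 0.67 TPM with I-BET151 (log2 fold change -3.37 ± 0.30 SE, adjusted p = 0.048), and it passed the filter only through the DMSO libraries. Its call was lost with a pseudocount of 0.1 and with no filter. With the replicate block NKX6-1, FOXA2, CXCR4 and RGS5 were also called higher, and COL1A1, COL3A1, POSTN, KRT7 and CHGA lower. KRT7, which passed the filter only through the DMSO libraries, was called lower with median centring and quantile normalization too. Of 10 tested mesenchymal markers 3 had a positive log2 fold change, the largest being RGS5 at 1.89 ± 0.31 (SE, adjusted p = 0.0908). The mesenchymal markers summed to between 246 and 346 TPM with DMSO and to between 151 and 176 TPM with I-BET151, and their part in the member values was not tested.

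The genes whose pattern was nearest to that of FLT1 were found by Pearson correlation over the 9 group means among 11870 protein-coding genes with at least 10 TPM in their highest group. Among the 10 nearest were CCNE1 (r = 0.968), SHCBP1 (0.967), TWNK (0.959), TNFRSF10B (0.956), PRIM1 (0.955), UBE2T (0.953), MRTO4 (0.952) and XRCC2 (0.946), and 8 of the 10 were also among the nearest over the 14 libraries. CCNE1, cyclin E1, went from 42.6 TPM in ePP-P9 to 10.3 TPM in ePP-β, a smaller range than that of FLT1. PRIM1 is a subunit of the DNA primase, and its mean was 51.9 TPM in ePP-P9 against 7.81 TPM in SC-β. TNFRSF10B, a death receptor, was at 310 TPM in ePP-P21 and 31.4 TPM in SC-β. The points share batches and libraries, so these values are a description.

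The nearest genes of KDR were RSPO4 (r = 0.989), NPR1 (0.987) and RASSF2 (0.986), all highest in PP2, and those of VEGFA were RAB32 (0.981), FCGRT (0.968) and SPINK1 (0.959), all highest in SC-β. VEGFB was nearest to IRX3 (0.973), ACOT8 (0.969) and MAGEL2 (0.967), and PGF to NRSN2 (0.967), SPX (0.966) and FGG (0.962). VEGFC was nearest to ANXA8L1 (0.994), COLEC10 (0.993) and COL6A3 (0.993), a collagen of mesenchyme that was at 77 TPM in SC-β and 16.7 TPM in PP2. ANXA8L1 has near-identical copies with which it may share reads, so its level is uncertain. NRP1 was nearest to H6PD (0.961), JOSD1 (0.951) and IER5L (0.931), and NRP2 to PCED1B (0.981), GPRIN2 (0.961) and ENSG00000262304 (0.956). FLT4 stayed under 10 TPM in every group and was not searched. Among members, over the same 9 means, VEGFA and PGF had r = 0.83, KDR and NRP2 had r = 0.83, and FLT1 and VEGFB had r = -0.82.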

How the data were processed

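RNA-seq was made from 14 MEL1 libraries in 9 groups, placed by their sample titles. Per the study's methods and processing notes, the authors made paired-end libraries from total RNA with a NEBNext Ultra kit, aligned the reads to GRCh38 (hg38) with HISAT2 2.1.0 and quantified transcripts with StringTie. The deposited values are TPM per Ensembl gene, with no scaling between libraries added. Whether strand was used and which annotation release was counted are not given in the sources used here, so reads of a gene and of an overlapping antisense gene cannot be told apart, and opposite-strand lncRNAs overlap KDR, VEGFA, VEGFC, NRP1 and NRP2. TPM keep no depth, so no counting interval is given.

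Of 60624 identifiers, 60370 matched GENCODE 44, which gave symbols and positions. Genes that reached 1 TPM in 2 or more libraries of a fit were tested on log2(TPM + 1), a scale that understates the change of low genes, with limma 3.58.1 in R 4.3.3 (lmFit and eBayes with an intensity trend; two-sided; Benjamini-Hochberg over all tested genes). A gene was called at an adjusted p under 0.05 and a log2 fold change beyond 1, the study's thresholds. Each fit held only the groups compared, within 1 batch; the ePP level was the mean of both passage means. A count test cannot take TPM, so none was run. The code was tested on simulated data with 200 genes changed by 2 on the log2 scale. Of these, 48% were recovered for I-BET151 against DMSO and 100% in each other comparison. The simulated spread of a gene was at most the median spread, so genes that vary more were not simulated. A gene not called between I-BET151 and DMSO may thus still differ. The members and the gene lists were chosen with earlier results of these data known. Of each list up to 4 called genes with the largest log2 fold change per comparison are named, or the largest where none was called; PDK1, PAN3 and marker genes named beyond this were added after their values were seen. Of the 10 genes nearest to FLT1 in pattern, some are not reported here. Promoter windows are from RefSeq (GRCh38.p14). Alternatives were a pseudocount of 0.1, no filter or 5 TPM, median centring, quantile normalization, a replicate block, leaving out each library, all 6 batch 2 libraries, and TPM without ribosomal protein genes.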

Additional observations from a re-analysis of the deposited data

How the results depend on the processing

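The highest group of 9 of 9 members was the same after ribosomal protein genes were left out. That step rescales each library as a whole, and the full order of the groups was not compared. Over the 14 libraries in place of the 9 group means, 8 of the 10 genes nearest to FLT1 were again among its nearest. FLT1 in ePP-β against ePP, -5.71 on the log2 scale, was -8.32 with a pseudocount of 0.1, -5.85 with median centring and -5.76 with quantile normalization, and between -5.72 and -5.70 with 1 library left out. The number of genes called there stayed between 3466 and 5820 (5020 as reported), but the share of calls that were higher, 64.5%, was 55.2% with median centring and 47.5% with quantile normalization. Numbers of calls in the other comparisons depended strongly on the settings. Between I-BET151 and DMSO, 35 genes became 0 with a pseudocount of 0.1, 0 with no filter, 120 with median centring, 138 with quantile normalization, and 107, 268, 667 and 1034 without DMSO replicate 1, DMSO replicate 2, I-BET151 replicate 1 and I-BET151 replicate 2; the lone library of an arm was then assumed to vary like the others. The calls there were 1 higher and 34 lower (2.86% higher), against 283 higher and 751 lower (27.4%) without I-BET151 replicate 2 and 828 higher and 1466 lower (36.1%) with the replicate block. No member was called in any of these. Between ePP-P21 and ePP-P9, 178 genes became 0 with no filter, 0 with median centring, 13 with quantile normalization, 35 with all 6 libraries of batch 2 (94.9% of calls higher as reported, 76.9% with quantile normalization), and between 0 and 478 with 1 library left out: 478 without ePP-P9 replicate 2, 0 without ePP-P21 replicate 1 and 2 without ePP-P21 replicate 2. The members called there, 1 as reported (VEGFA), were 0 with no filter, median centring, quantile normalization or all 6 libraries, and 0 or 1 with 1 library left out. Differences that turned sign were NRP1 under I-BET151 (0.09; -0.02 with quantile normalization and -0.29 to 0.46 with 1 library left out), NRP1 and PGF between passages (-0.35 to 0.04 and -0.06 to 0.01 with 1 library left out), and NRP2 in ePP-β (0.37; -0.16 with quantile normalization, -0.39 to 1.12 with 1 library left out). The cause of these changes was not tested. Libraries of a group share only a replicate number with those of another. The difference between replicate 2 and replicate 1 correlated across genes at r = 0.675 between DMSO and I-BET151, at -0.00933 between ePP-P9 and ePP-P21, and at -0.00401, 0.032 and 0.0439 among the ePP and ePP-β groups. With the replicate number as a block, 2294 genes were called between I-BET151 and DMSO, but no member (adjusted p of 0.0506 for PGF, 0.0596 for VEGFB, 0.0814 for NRP2 and 0.0981 for FLT1), and 66 genes between passages, VEGFA among them (adjusted p = 0.036). The depth of the libraries is unknown, so members under 1 TPM (KDR and VEGFC in ePPs, FLT1 in ePP-β) have no known counting error.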
